A study of Mus musculus with 4 samples.

Results

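The 8 chemokine receptor genes Cxcr4, Ccr7, Cx3cr1, Ccr1, Ccr2, Cxcr2, Cxcr3 and Ccrl2 were followed across 4 arrays of mouse bone marrow cells. They were taken by gene symbol from the annotation of the array platform, which gave them 13 probe sets among the 34945 non-control probe sets with a single gene symbol, and 8 of the 18193 genes so named. Every sample started from LSK cells (lineage-negative, Sca-1-positive, c-kit-positive), the part of the marrow in which blood stem and progenitor cells are concentrated, grown with serum, IL-3, SCF, Flt3 and IL-11. At day 3, one sample carried a retrovirus for eGFP, a green fluorescent protein, and one a retrovirus for β-catenin. The other samples, labelled DKmix, had received β-catenin and were cultured for 50 and for 300 days. The strain, sex and age of the mice, the promoter of the vectors and whether the DKmix arrays came from 1 culture are not given in the sources used here. Each group held 1 array, so there was no replicate, no test was made, and each difference is one between single arrays. The study's stated aim was to find targets by which β-catenin, which carries the Wnt signal to the nucleus, controls immortalization of these cells.

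Chemokines are small secreted proteins that direct the movement of white blood cells, and their receptors are G protein-coupled receptors that signal mainly through inhibitory G proteins. A receptor is switched off by G protein-coupled receptor kinases and arrestins, while RGS proteins shorten the G protein signal. In the marrow, CXCR4 holds stem cells and immature granulocytes near stromal CXCL12, CXCR2 draws neutrophils out, and CCR2 lets monocytes leave.

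Values are MAS5 signal intensities on a linear scale, scaled by the authors to a common level: after trimming 2% at either end the mean was 150.0 on each array. Intensities below 48.3, the median of all values, were set to this floor before a ratio was taken. Where 1 of 2 arrays was at the floor, the ratio is only a lower bound ("at least"), and where both were, no ratio is given. Gapdh probe sets at the 3′ and 5′ ends, whose signal ratio is a sign of RNA quality, gave ratios of 1.06 to 1.18 on β-catenin day 3 and DKmix day 300, and of 4.14 to 4.96 on eGFP day 3 and DKmix day 50. How far probe sets of 1 gene disagree is the one error these arrays give, with an SD of 0.64 to 0.91 on the log2 ratio scale over the comparisons. It was taken from the 2 brightest probe sets of a gene above the floor on both arrays, so dimmer ones did not enter it. This SD says nothing of the spread between cultures.

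The LSK label was only partly borne out by its markers. Kit, which encodes c-kit, read 55.8 on eGFP day 3 and 82.9 on β-catenin day 3, just above the floor, against 3459.5 at DKmix day 50 and 1263 at DKmix day 300. Flt3 lay below the floor on all 4 arrays, at 15.5 to 47.4. Cd34, a progenitor surface protein, read 111.8 with eGFP and 804.1 with β-catenin at day 3, and 2068.5 and 4292.7 at DKmix day 50 and day 300. The other stem and progenitor markers found went another way. In the same order of arrays, Eng read 129.4, 633.5, 132.3 and 18.5, Cd48 read 449.6, 1104.9, 655.7 and 34.0, and Slamf1 read 5.6, 87.6, 62.9 and 39.0. All of these were highest on β-catenin day 3 and below the floor at DKmix day 300. In bulk RNA such as this, fewer cells of a type and less RNA per cell cannot be told apart.

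Cxcr4, the receptor for CXCL12 that retains cells in the marrow, was read by 1 probe set. Its intensity was 653.4 on eGFP day 3, 215.1 on β-catenin day 3, 11.9 at DKmix day 50 and 2.9 at DKmix day 300. Both day 3 arrays were above the floor and both DKmix arrays below it. With β-catenin the signal was 3.04-fold lower than with eGFP at day 3. On each DKmix array it was at least 4.45-fold lower than on β-catenin day 3 and at least 13.5-fold lower than on eGFP day 3. The day 3 values stood at percentiles 92.8 and 81.7 of all probe sets on their arrays, and the DKmix values at percentiles 23.7 and 6.3. With the floor raised to 134.6, percentile 75 of all values, the bound against β-catenin day 3 fell short of 2-fold (log2 ratio -0.68).

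Ccrl2, an atypical receptor that binds chemerin and does not signal as the other receptors do, followed the same order of arrays. It read 367.5 on eGFP day 3, 139.5 on β-catenin day 3, 58.0 at DKmix day 50 and 51.5 at DKmix day 300. Here the DKmix values lay just above the floor. The signal was 2.63-fold lower with β-catenin than with eGFP, and 2.41-fold and 2.71-fold lower at DKmix day 50 and day 300 than on β-catenin day 3. With the floor of 134.6, both DKmix ratios fell to bounds of -0.05 (log2). Against eGFP day 3, the DKmix arrays were 6.34-fold and 7.14-fold lower. Cxcr4 and Ccrl2 were the 2 members whose higher DKmix value was at least 2-fold below the lower day 3 value, and 0 of the 8 were separated the other way. With the floor of 134.6, 0 members and 6.03% of all genes were separated. Over all 15309 genes above the floor on some array, 5.45% were separated in either direction, and 2.68% with DKmix lower.

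The bases just before the transcription start of these genes are shown because both had low signals on the long-term arrays. They cover 250 bases, come from RefSeq on build GRCm38.p6, and are written 5′ to 3′ on the gene's strand, which is the minus strand for each. Capitals mark matches to the motifs searched. Of the 3 start sites listed for Ccrl2, the most upstream is printed. Cxcr4 lies on chromosome 1 (chr1:128592300-128592549) and Ccrl2 on chromosome 9 (chr9:111057519-111057768).
Cxcr4: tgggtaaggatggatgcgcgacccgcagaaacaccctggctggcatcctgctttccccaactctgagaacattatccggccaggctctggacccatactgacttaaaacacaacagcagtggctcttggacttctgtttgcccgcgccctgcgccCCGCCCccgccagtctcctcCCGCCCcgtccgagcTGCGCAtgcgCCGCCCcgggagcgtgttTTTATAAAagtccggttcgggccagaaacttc
Ccrl2: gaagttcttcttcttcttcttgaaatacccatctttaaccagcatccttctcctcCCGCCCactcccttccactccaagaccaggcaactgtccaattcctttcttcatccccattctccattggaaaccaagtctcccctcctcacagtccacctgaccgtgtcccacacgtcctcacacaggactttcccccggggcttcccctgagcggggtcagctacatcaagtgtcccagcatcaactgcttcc

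The Cxcr4 window held 3 GC boxes (CCGCCC), the NRF1 half-site TGCGCA at -60 to -55 and a TATA box (TATAAA) at -30 to -25, counted from the start site. The TATA box overlapped a second match on the other strand. The Ccrl2 window held 1 GC box, at -195 to -190. Of 32851 RefSeq windows of the same length, 32.7% held a GC box, 6.43% the half-site and 12.4% a TATA box, on either strand. The window of Cxcr4 had 19 CpG dinucleotides and that of Ccrl2 had 5, against a median of 6 over all windows. The TCF/LEF core, searched as ATCAAAG and TTCAAAG, was in 7.48% of all windows and in none of the 9 windows found for 7 of the members. The motifs were chosen after the windows had been read, and a match is a description of letters, not of binding. Ccr7 was the member with no entry. The window of Cx3cr1, that of Ccr2 and those of the other 2 Ccrl2 start sites held a GATA motif, searched as AGATAA and as TGATAA, each also with G for its last base, which was in 26.5% of all windows. The PU.1 core GAGGAA, in 23.3% of all windows, was in those of Ccr1, Cxcr2 and Cxcr3.

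Ccr7, the receptor that takes mature dendritic cells and naive T cells to lymph nodes, was high on a single array. Its 1 probe set read 5.6 on eGFP day 3, 892.0 on β-catenin day 3, 65.2 at DKmix day 50 and 55.4 at DKmix day 300. The β-catenin value stood at percentile 94.6 of its array, the eGFP value at percentile 13.9. The signal with β-catenin was at least 18.5-fold above that with eGFP. From β-catenin day 3 it was 13.7-fold lower at day 50 and 16.1-fold lower at day 300. The DKmix values were close to each other (1.18-fold apart) and close to the floor, at least 1.35-fold and 1.15-fold above eGFP day 3.

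Most listed markers of dendritic cells were highest on β-catenin day 3, as was Ccr7. Of 10 listed dendritic cell markers, 8 were at least 2-fold higher on β-catenin day 3 than on eGFP day 3 and 1 was lower, Itgax, the integrin chain CD11c (743.2 with eGFP, 139.5 with β-catenin). Over all genes 10.2% were higher and 9.41% lower. The summed intensity of the 10 was 4905 on eGFP day 3, 23300 on β-catenin day 3, 331.1 at DKmix day 50 and 608.7 at DKmix day 300. Most of the β-catenin day 3 sum came from H2-Aa (8396.5), Cd74 (7679.5) and H2-Eb1 (3102.3). These read 1852, 1242.9 and 469.6 on eGFP day 3, where Ccr7 read 5.6. Against eGFP day 3, 5 of 8 measured markers were lower at DKmix day 50 and 0 higher. Over all genes 15.0% were lower in that pair. Ccr7 was below the floor on eGFP day 3, so a fall from that array could not be seen for it. Cd86, a costimulatory ligand, read 36.6 with eGFP and 557.2 with β-catenin, and Ccl22, a chemokine of mature dendritic cells, 85.1 and 802.6. At DKmix day 50, 3 of the 10 were above the floor (H2-Ab1, Cd74 and Ciita), and at day 300 also 3 (H2-Ab1, Cd74 and Fscn1). The part of such cells in the Ccr7 signal was not tested.

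**Figure D1:**
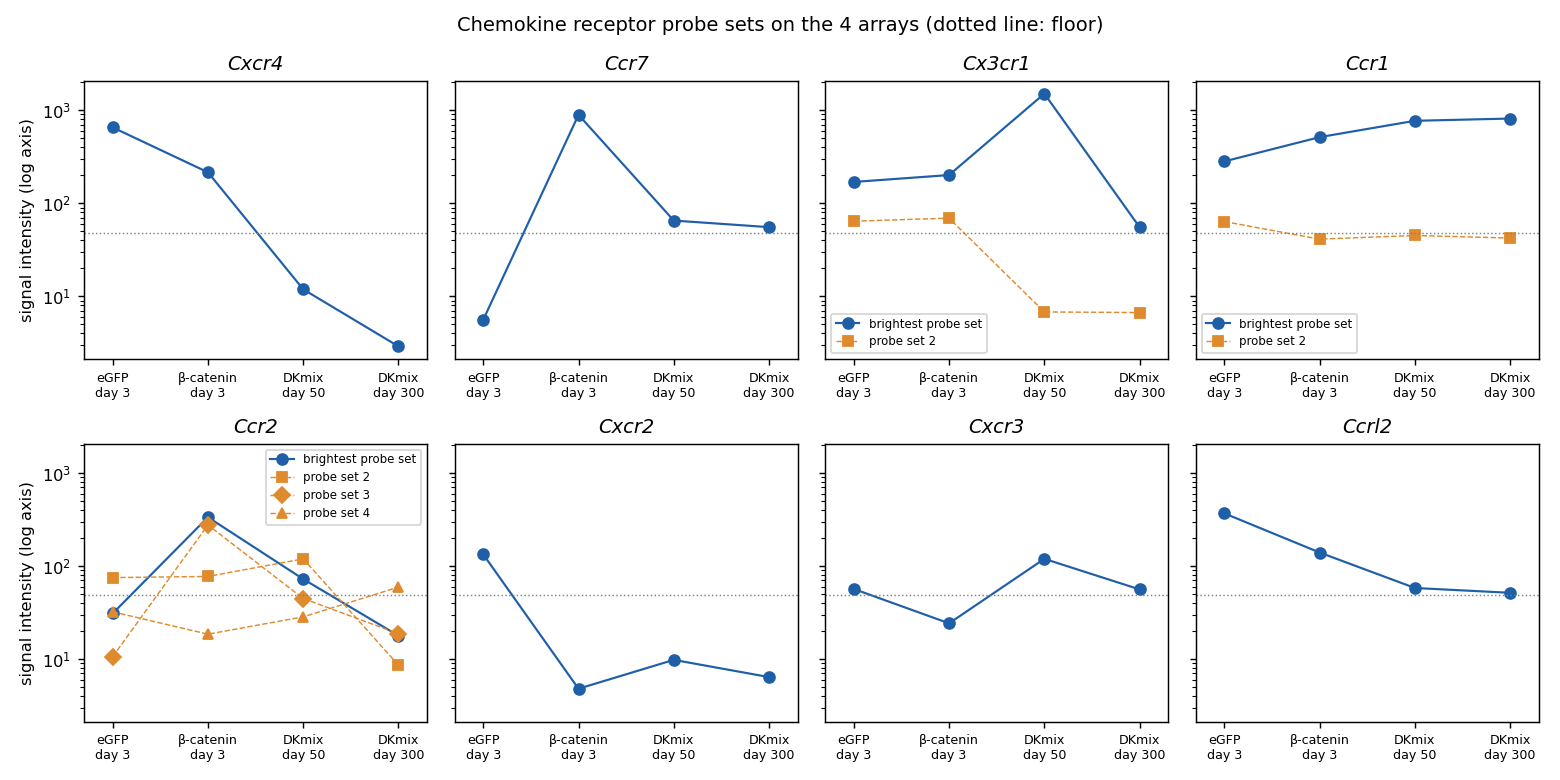
Signal intensity (log axis) of the 13 probe sets of the 8 chemokine receptor genes on each of the 4 arrays, with the floor of 48.3 as a dotted line; blue marks the brightest probe set of a gene, orange the others, and the lines only guide the eye. Cxcr4 goes from 653.4 on eGFP day 3 to 2.9 on DKmix day 300, Ccr7 peaks at 892.0 on β-catenin day 3, and the 2 probe sets of Cx3cr1 part at day 50.

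Ccr2, which binds CCL2 and lets monocytes leave the marrow, also had its highest signal on β-catenin day 3. The brightest of its 4 probe sets read 30.9 on eGFP day 3, 334.2 on β-catenin day 3, 72.3 at DKmix day 50 and 17.8 at DKmix day 300. Another read 10.6, 275.8, 44.7 and 18.7 in the same order. By both, the β-catenin day 3 array stood above the other 3. The difference from eGFP was at least 6.92-fold by the first and at least 5.71-fold by the other. Against β-catenin day 3, the first was 4.62-fold lower at day 50 and at least 6.92-fold lower at day 300, and the other at least 5.71-fold lower at both.

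The remaining probe sets of Ccr2 did not show this peak. One read 75, 77.2, 119.2 and 8.6, with the eGFP and β-catenin arrays 1.03-fold apart, and was annotated to the same source record as the first pair. The last read 32.2, 18.5, 28.4 and 59.3, above the floor only at DKmix day 300. Neither reached 134.6, the intensity at percentile 75 of all values, on any array. When the log2 intensities of the 4 probe sets were averaged, the log2 ratio of Ccr2 between β-catenin and eGFP went from 2.79 to 1.15, and Ccr2 was no longer 2-fold lower at day 50 than on β-catenin day 3 (-0.90).

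Monocyte and macrophage markers did not have their highest sum where Ccr2 did, though their median was highest there. Of 9 found, 4 were at least 2-fold lower on β-catenin day 3 than on eGFP day 3, among them Lyz2 (lysozyme, 14390 and 994.2) and Csf1r (the receptor for macrophage colony-stimulating factor, 11798 and 1999.5), and 2 were higher (Cd68 and Cd14). On each DKmix array 6 of the 9 were lower than on β-catenin day 3. Over all genes 9.41% were lower and 10.2% higher in the day 3 pair, and 15.7% and 14.4% were lower on the DKmix arrays. The summed intensity of the 9 was 29975, 4626, 821.9 and 5733 on eGFP day 3, β-catenin day 3, DKmix day 50 and DKmix day 300. Most of the first came from Lyz2 and Csf1r, and most of the last from Cd68 (5407). The median intensity of the 9 was 237.0, 341.7, 97.8 and 39.2 in the same order. Lyz2 and Csf1r were thus highest on eGFP day 3 and lowest on the DKmix arrays, as were Cxcr4 and Ccrl2, and the part of such cells in these signals was not tested.

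Ccr1, a receptor for CCL3, CCL5, CCL6 and CCL9 on monocytes, neutrophils and mast cells, was well above the floor on all 4 arrays by 1 of its 2 probe sets. Its brightest probe set read 281.8 on eGFP day 3, 513.6 on β-catenin day 3, 769.3 at DKmix day 50 and 813.3 at DKmix day 300. All 4 values were above percentile 75 of all values, and the DKmix arrays were the higher pair. Against eGFP day 3 they were 2.73-fold and 2.89-fold higher, against β-catenin day 3 they were 1.5-fold and 1.58-fold higher, and they differed by 1.06-fold from each other. A second probe set from the same source record read 63.6, 41.2, 45.1 and 42.3, above the floor on eGFP day 3 alone, and did not show this order. With both probe sets averaged, day 50 over eGFP day 3 was no longer past 2-fold. Mast cell markers were also higher on the DKmix arrays. Of 10 found, 7 of 9 measured were at least 2-fold higher at day 50 than on β-catenin day 3 and 1 was lower (Hdc, 233.8 and 23.0), and 7 of 7 were higher at day 300. The shares higher over all genes were 16.1% and 14.0%. Tpsab1 was below the floor on all 4 arrays. Their summed intensity was 740.7, 3469, 148641 and 58849 on eGFP day 3, β-catenin day 3, DKmix day 50 and DKmix day 300, and the part of mast cells in the Ccr1 signal was not tested.

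Cx3cr1, the fractalkine receptor of monocytes and macrophages, stood out at day 50 by 1 of its 2 probe sets. That probe set read 169.5 on eGFP day 3, 201.0 on β-catenin day 3, 1505 at DKmix day 50 and 55.3 at DKmix day 300. The day 50 value was 7.49-fold above β-catenin day 3, 8.88-fold above eGFP day 3 and 27.2-fold above DKmix day 300. The other probe set, annotated to the same source record, read 64.2, 69.2, 6.8 and 6.7, so that it was below the floor on both DKmix arrays. It gave a DKmix day 50 value at least 1.43-fold below β-catenin day 3, in the opposite direction. With both averaged, the log2 ratio of day 50 over β-catenin day 3 went from 2.90 to -0.22, that over eGFP day 3 from 3.15 to -0.04, and that of day 300 over day 50 from -4.77 to -1.07.

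Such disagreement was common on these arrays. Among 1060 genes at least 2-fold higher at DKmix day 50 than on β-catenin day 3 whose second probe set was measured, 71.4% had that probe set in the same direction and 63 genes had it past 2-fold in the other. Between the DKmix arrays, 63.9% of 993 genes that were lower at day 300 had both probe sets in that direction. DKmix day 50 was also the array with the highest 3′ to 5′ ratios, 4.96 for Gapdh and 3.41 for β-actin, and the part of RNA quality in the Cx3cr1 signal was not tested.

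Cxcr2, the receptor for CXCL1 and related chemokines that brings neutrophils out of the marrow, was detected above the floor on 1 array. It read 133.3 on eGFP day 3, 4.8 on β-catenin day 3, 9.8 at DKmix day 50 and 6.4 at DKmix day 300. The eGFP value was at percentile 75.4 of its array, the others between percentiles 12 and 20. The β-catenin day 3 and both DKmix arrays were each at least 2.76-fold lower than eGFP day 3 and could not be compared with each other. Of 9 neutrophil markers found, 7 were at least 2-fold lower on β-catenin day 3 than on eGFP day 3 and 0 higher. Over all genes 9.41% were lower and 10.2% higher. Lcn2 (1293.9 and 1237) and Mmp9 (73.1 and 98.2) were within 2-fold. At DKmix day 50, 8 of the 9 were lower than on eGFP day 3, where 15.0% of all genes were. The summed intensity of the 9, most of it from S100a9, S100a8 and Ngp, was 61685 on eGFP day 3, 2311 on β-catenin day 3, 247.9 at DKmix day 50 and 158.8 at DKmix day 300. S100a9, a subunit of calprotectin, read 28112 with eGFP and 290.0 with β-catenin, and Ltf (lactoferrin) 4017 and 8.4. All 9 were above the floor on eGFP day 3 and 1 on each DKmix array (Ltf at day 50, Ngp at day 300). The part of neutrophils in the Cxcr2 signal was not tested.

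**Figure D2:**
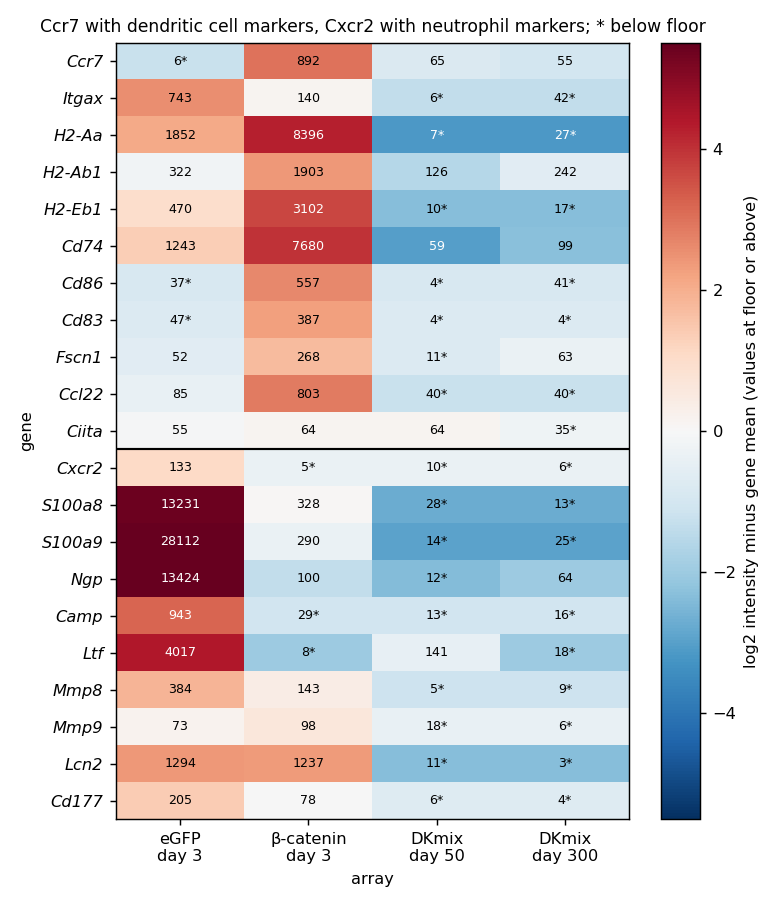
Ccr7 with the dendritic cell markers and Cxcr2 with the neutrophil markers on the 4 arrays; numbers are intensities, an asterisk marks values below the floor of 48.3, and colour is the log2 intensity minus the gene's mean after flooring. Ccr7 (892.0) and most dendritic cell markers are highest on β-catenin day 3, and Cxcr2 (133.3) with most neutrophil markers on eGFP day 3.

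Cxcr3, the receptor for CXCL9, CXCL10 and CXCL11 on effector T and NK cells, stayed low. It read 56.6 on eGFP day 3, 24.2 on β-catenin day 3, 119.3 at DKmix day 50 and 56.0 at DKmix day 300. No value reached percentile 75 of its array. The day 50 signal was at least 2.47-fold above β-catenin day 3, 2.11-fold above eGFP day 3 and 2.13-fold above DKmix day 300. Of 7 T and NK cell markers found, 1 was above the floor at DKmix day 50 (Gzma, 49.2), and Cd3d, Cd3e and Cd3g were below it on all 4 arrays. The Cxcr3 values over eGFP and between the DKmix arrays were within 2-fold with lowess centring, as were those over β-catenin day 3 on the hybridisation control scale.

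Taking the brightest probe set of each member, 2 of 8 were at least 2-fold higher on β-catenin day 3 than on eGFP day 3 (Ccr7 and Ccr2) and 3 were lower (Cxcr4, Cxcr2 and Ccrl2). Over all 13379 genes measured, 19.6% were past 2-fold in this pair, 10.2% higher and 9.41% lower. The members' median log2 ratio was 0.01, against -0.01 over all genes, since rises and falls offset each other. Scaled on the hybridisation controls, 3 members were higher and 2 lower, Ccr1 joining the higher and Ccrl2 leaving the lower, and 31.1% of all genes were past 2-fold.

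From β-catenin day 3 to DKmix day 50, 4 of 7 measured members were lower (Cxcr4, Ccr7, Ccr2 and Ccrl2) and 2 higher (Cx3cr1 and Cxcr3), where 31.8% of all genes were past 2-fold, 15.7% lower. To DKmix day 300, 5 of 7 were lower (Cxcr4, Ccr7, Cx3cr1, Ccr2 and Ccrl2) and 0 higher, where 28.4% of all genes were past 2-fold and 14.4% lower. The members' median log2 ratios were -1.27 and -1.86, and those of all genes 0.07 and -0.08. Both comparisons share the β-catenin day 3 array, on which Ccr7 and Ccr2 were at their highest. On the scale of the hybridisation controls, 1 member was higher and 4 lower at day 50, where 47.1% of all genes were past 2-fold.

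Against eGFP day 3, the array with 3′ to 5′ ratios nearest to its own, DKmix day 50 had 3 of 8 members higher (Cx3cr1, Ccr1 and Cxcr3) and 3 lower (Cxcr4, Cxcr2 and Ccrl2). The share past 2-fold over all genes was 30.5%. On the hybridisation control scale 1 was higher and 3 lower, with 34.2% of all genes past 2-fold. Between the DKmix arrays, 2 of 6 measured members were lower at day 300 (Cx3cr1 and Cxcr3) and 0 higher, with 30.9% of all genes past 2-fold. Ccr7, Ccr1 and Ccrl2 were within 1.18-fold on the DKmix arrays. Over all comparisons, Cxcr4 and Ccrl2 kept the direction of their difference between DKmix and day 3 arrays whichever day 3 array was taken, while Ccr7 was lower than β-catenin day 3 and not lower than eGFP day 3.

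**Figure D3:**
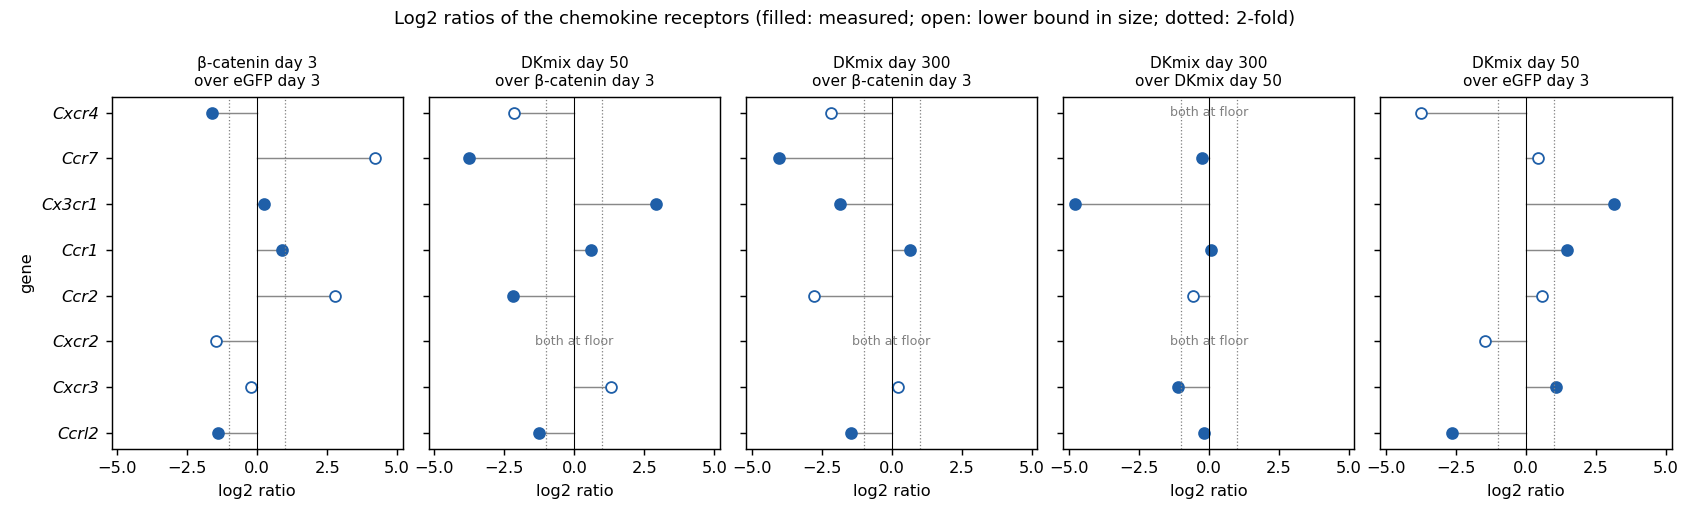
Log2 ratio of each chemokine receptor, by its brightest probe set, in 5 comparisons of single arrays; filled points are measured on both arrays, open points are lower bounds in size, and dotted lines mark 2-fold. Ccr7 has the largest rise with β-catenin at day 3 (at least 4.21) and Cx3cr1 the largest fall between the DKmix arrays (-4.77, or -1.07 with its probe sets averaged).

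The other chemokine receptors were mostly dim. Of 16 listed, 14 had a probe set in the table, and 3 to 6 of these were above the floor on any array. Cxcr5, the follicle-homing receptor of B cells, read 14.4, 185.6, 5.3 and 18.8 on eGFP day 3, β-catenin day 3, DKmix day 50 and DKmix day 300, and Ccr6 read 44.7, 144.9, 8.8 and 54.4. Both thus had their highest value on the array where Ccr7 and Ccr2 did. The atypical receptor Ackr1 read 42.1, 105.3, 777.7 and 55.6, with its highest value on DKmix day 50 as for Cx3cr1. At day 3, 3 of 7 measured genes of this list were higher with β-catenin and 0 lower, where 10.2% and 9.41% of all genes were. From β-catenin day 3 to DKmix day 300, 1 of 8 was higher (Ccr1l1, from 31.8 to 108.5) and 3 were lower, where 14.0% and 14.4% of all genes were. Of 5 B cell markers found, 2, 1, 2 and 0 were above the floor on the 4 arrays in the same order.

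Several members are neighbours of other receptor genes on mouse chromosome 9. In the RefSeq order of protein-coding genes (GRCm38.p6), Ccr1 lies next to Ccr1l1, and Ccr2 lies next to Ccr3. Ccr3, the eotaxin receptor, read 51.5, 1.8, 41.1 and 2.0, and was below the floor on the array where Ccr2 was highest. Ccrl2 lies next to Ltf, which was highest on eGFP day 3 as Ccrl2 was, but read 8.4 with β-catenin where Ccrl2 read 139.5.

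Several ligands had their high values on other arrays than their receptors, and others on the same array. Ccl2, the main ligand of CCR2, read 20.5 on eGFP day 3, 44.7 on β-catenin day 3, 2786 at DKmix day 50 and 3909 at DKmix day 300, so it was at least 57.7-fold and 80.9-fold above β-catenin day 3 on the DKmix arrays, where Ccr2 was lower. For CCR1 the order was the reverse. Ccl9 read 4111, 3068, 34.2 and 63.1 and Ccl6 read 5948, 825.9, 53.0 and 22.0. By its brightest probe set and on the scale as deposited, Ccr1 was highest on the DKmix arrays. Ccl3 and Ccl5 were also at least 2-fold lower there than on β-catenin day 3. For CXCR2, Ppbp (294.5, 70.9, 7.8 and 22.5), Cxcl1 (161.2, 68.6, 9.7 and 83.1) and Cxcl3 (111.1, 57.8, 65.0 and 23.2) were highest on eGFP day 3, as was Cxcr2. Cxcl11 was above the floor at DKmix day 50 alone (94.8), where Cxcr3 was highest. Cxcl9 and Cxcl10 were highest on β-catenin day 3 (65.1 and 235.3), where Cxcr3 was lowest. Cxcl12, the ligand of CXCR4, was below the floor on all 4 arrays (11.3 to 43.3), and Rarres2, which encodes chemerin, at or near it (29.4 to 51.6). Of 21 ligand genes found, 8 of 15 measured were lower at DKmix day 50 than on β-catenin day 3 and 1 was higher, with a median log2 ratio of -1.12. Over all genes 15.7% were lower and 16.1% higher, with a median of 0.07.

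**Figure D4:**
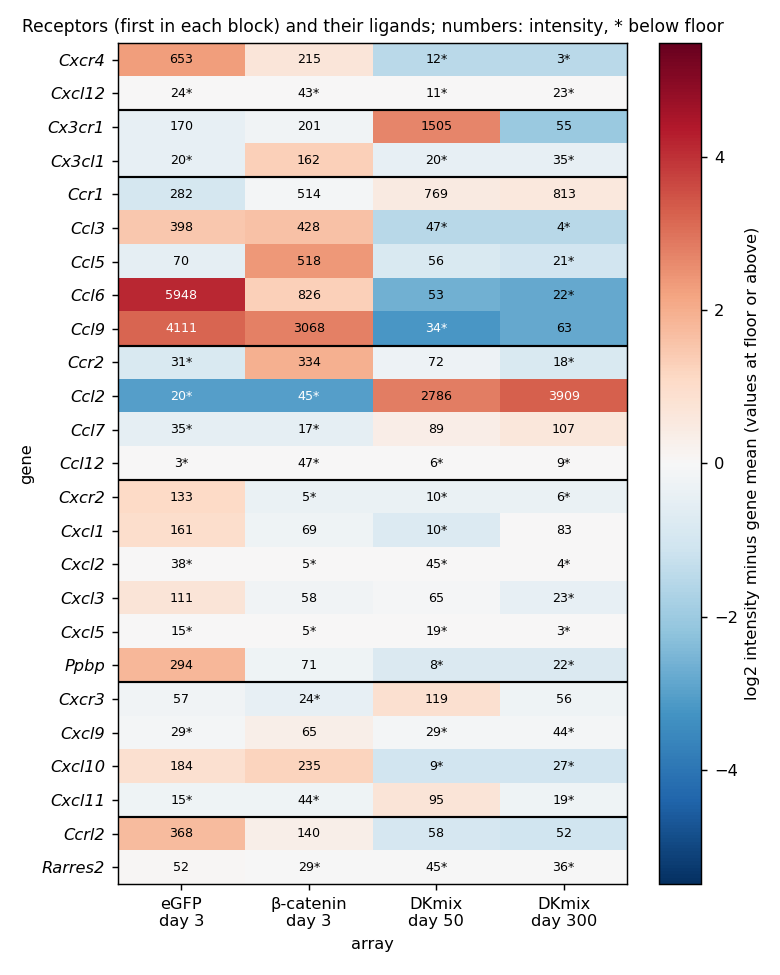
Each receptor (first in its block) with its ligands on the 4 arrays; numbers are intensities, an asterisk marks values below the floor of 48.3, and colour is the log2 intensity minus the gene's mean after flooring. Ccl2 is high on the DKmix arrays (2786 and 3909) where Ccr2 is low, and Ccl6 and Ccl9 are high at day 3 where Ccr1 has its lower values.

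Genes that carry the receptor signal were mostly above the floor. Of 18 G protein and effector genes, 16 to 18 were above the floor on each array, among them Gnai2, the main inhibitory G protein of leukocytes (4035, 1548, 3176 and 3816), and Rac2 (5141, 3419, 8106 and 5489.9). Gnai1, a related subunit, read 63.9, 15.9, 137.1 and 3021, 22.0-fold higher at DKmix day 300 than at day 50. Prex1, an activator of Rac downstream of these receptors, read 349.4, 162.7, 22.1 and 47.4 and, like Cxcr4, was below the floor on both DKmix arrays. At DKmix day 50, 7 of 18 were at least 2-fold higher than on β-catenin day 3 and 3 lower, where 16.1% of all genes were higher and 15.7% lower. At day 300 it was 3 and 4, near the 14.0% and 14.4% of all genes.

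Of 14 arrestins, receptor kinases and RGS proteins, 11 to 12 were above the floor on each array. At DKmix day 50, 6 were at least 2-fold higher than on β-catenin day 3 (Rgs13, Rgs10, Rgs18, Grk5, Rgs2 and Rgs1), and at day 300 also 6, with Arrb1 in place of Rgs2. Over all genes 16.1% and 14.0% were higher in these comparisons, and 15.7% and 14.4% lower. Rgs13, an RGS protein of mast and germinal centre B cells, read 2.8, 1.5, 461.4 and 1046, at least 9.55-fold and 21.7-fold above β-catenin day 3. Rgs18 read 279.8, 190.8, 1705 and 3059, and the kinase Grk5 5.2, 3.8, 429.8 and 211.4. Lower in both comparisons were Grk3 (254.4, 218.7, 30.6 and 65.1), a kinase that acts on CXCR4, and Rgs3 (191.5, 117.5, 22.2 and 18.2). Rgs1, which limits chemokine signalling, was 3.41-fold higher on β-catenin day 3 (723.4) than on eGFP day 3 (211.9) and read 3930.5 and 2281.5 on the DKmix arrays. In the day 3 pair it was the 1 of 12 measured that was at least 2-fold higher, and 4 were lower (Rgs10, Rgs14, Rgs2 and Arrb1). Over all genes 10.2% were higher and 9.41% lower there. Most of the mast cell markers given beside Ccr1 also had their higher values in DKmix cells. Between day 50 and day 300, Rgs13 rose 2.27-fold and Rgs18 1.79-fold. The mast cell markers were mixed between these days. Of 9 measured, 5 were at least 2-fold lower at day 300 and 1 was higher (Hdc, 23.0 and 1514), while Slc18a2 differed by 1.13-fold. The part of mast cells in the RGS and kinase signals was not tested.

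**Figure D5:**
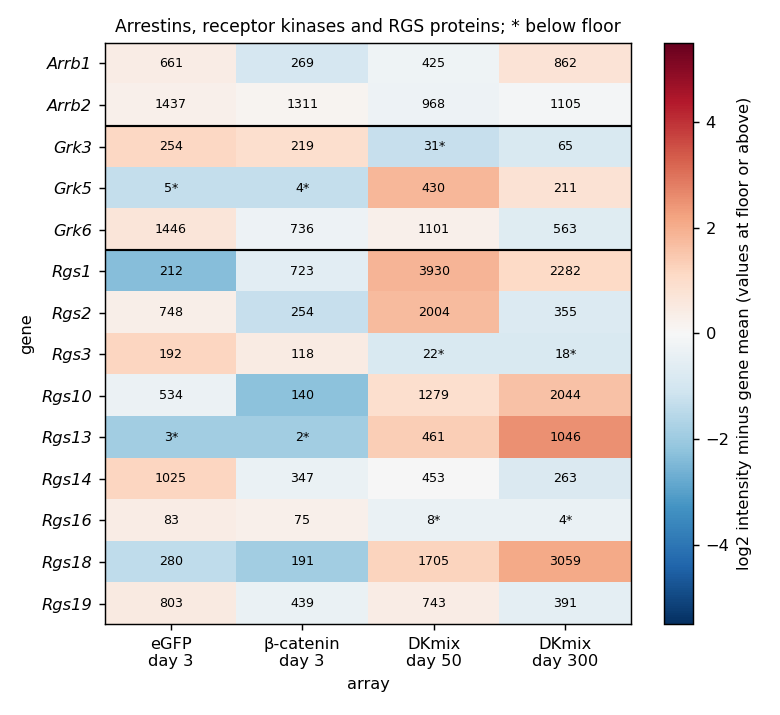
Arrestins, receptor kinases and RGS genes on the 4 arrays; numbers are intensities, an asterisk marks values below the floor of 48.3, and colour is the log2 intensity minus the gene's mean after flooring. Grk5, Rgs13 and Rgs18 have their higher values on the DKmix arrays, and Grk3, Rgs3 and Rgs16 on the day 3 arrays.

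For the 6 members that reached 4 times the floor on some array, the genes with the closest 4-array profile were sought among 7515 genes as bright, by the root mean square difference of centred log2 intensities after flooring. Values below the floor thus count as equal, which touches the distances for Cxcr4, Ccr7 and Ccr2 and that of Siglecf, which read 10.0 and 34.1 on the DKmix arrays. Cxcr4 was closest to Slc6a13 (0.20), Cebpd (0.21), a factor of granulocyte differentiation, and Oas2 (0.22), an interferon-induced enzyme. Ccr7 was closest to Igfbp7 (0.18), Cd86 (0.25) and Sdr39u1 (0.45). Ccr2 was closest to Hoxa9 (0.14), Sdr39u1 (0.20) and the chemokine gene Cxcl16 (0.23), which were all highest on β-catenin day 3. Ccrl2 had Siglecf (0.06), Rnaseh2c (0.11) and Pstpip1 (0.12), Ccr1 had Smarca2 (0.03), Sil1 (0.07) and Zfp579 (0.07), and Cx3cr1 had Scin (0.34), Cttn (0.39) and Pirb (0.41). With 4 arrays, many genes share a profile, and likeness here is a description of the intensities.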

How the data were processed

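RNA abundance was measured on 1 Affymetrix oligonucleotide array per group (eGFP day 3, β-catenin day 3, DKmix day 50, DKmix day 300). The authors deposited linear signal intensities; MAS5 is the tool that the submitters' processing notes name, and its version, its detection calls and the build are not given in the sources used here. Array medians were 39.7 to 54.9. Of 45101 probe sets, 34958 had 1 gene symbol in the platform annotation, 932 had several and 9211 were unnamed there. For each gene the probe set brightest by mean log2 intensity was used, control probe sets left out, and every probe set of a member is given.

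The floor was 48.3 and the threshold 2-fold. Named were all members, for each list and comparison up to 6 genes furthest past 2-fold, and the 3 closest profiles per member. Ly6a, Cxcr1, Ccl19 and Ccl21a were among list entries not analysed here. Members and lists were chosen with earlier results of these data known. Further genes were named after their values were seen (Kit, Flt3, Ccr3, Rac2, Cxcl12, Rarres2 and Gzma among them). Ratios and the probe set SD were tested on simulated data. Alternatives were quantile normalization, lowess centring (fraction 0.3), a scale set on 9 hybridisation control probe sets, floors at percentiles 25 and 75, no floor, and the mean of all probe sets. Python 3.11.15, pandas 2.3.3 and statsmodels 0.14.6 were used. Precision is limited by having 1 array per group.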

Additional observations from a re-analysis of the deposited data

How the results depend on the processing

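Of the 24 differences past 2-fold that members showed over the 5 comparisons, 23 were kept with quantile normalization, 22 with lowess centring, 19 on the hybridisation control scale, 24 with the floor at percentile 25 or with none, 14 with the floor at percentile 75 and 20 when all probe sets of a gene were averaged. The 10 not kept with the higher floor included those of Cxcr4 on both DKmix arrays against β-catenin day 3 and all of Cxcr2 and Cxcr3, whose signals or differences lay near that floor of 134.6. With it, the members past 2-fold went from 6 to 3 for DKmix day 50 and from 5 to 2 for DKmix day 300 over β-catenin day 3, with 29.8% and 27.3% of all genes past 2-fold, and from 2 to 0 between both DKmix and both day 3 arrays. Between the DKmix arrays the count of 2 was 1 with quantile normalization, lowess centring, the hybridisation control scale or the higher floor, where 28.5% to 29.4% of all genes were past 2-fold. With no floor it was 4 of 8 members, a share like the 51.2% of all genes. Of the 24, the 2 that reversed were those of Cx3cr1 at DKmix day 50 when its probe sets were averaged. The log2 ratios were -0.22 over β-catenin day 3 and -0.04 over eGFP day 3, where the second probe set read the other way. Some ratios within 2-fold also changed sign. Those of Ccr1 over β-catenin day 3 became -0.46 at DKmix day 50 and -0.33 at day 300 on the hybridisation control scale. The hybridisation control scale moved the median log2 ratio of all genes to 0.46 for β-catenin over eGFP, -0.82 and -0.87 for DKmix day 50 and day 300 over β-catenin day 3, and -0.40 for DKmix day 50 over eGFP day 3. No paired analysis was possible because each group held 1 array, and for the same reason no array could be left out.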

Other observations

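Receptors for other chemoattractants were looked at beside the chemokine receptors, as values only. Of 12 found in the table, 10 were above the floor on eGFP day 3 and at DKmix day 50, 7 on β-catenin day 3 and 3 at DKmix day 300. Hrh4, a histamine receptor that moves mast cells and eosinophils, read 6.5 on eGFP day 3, 3.0 on β-catenin day 3, 180.0 at DKmix day 50 and 9.2 at DKmix day 300, above the floor at DKmix day 50 alone. Between the DKmix arrays 5 of 10 measured receptors of this list were at least 2-fold lower at day 300 and 0 higher, where 15.9% of all genes were lower and 15.0% higher. Ltb4r1, the leukotriene B4 receptor of granulocytes, read 506.6, 136.0, 105.9 and 20.0, in the array order of Cxcr4 and Ccrl2. S1pr2, a sphingosine-1-phosphate receptor, read 159.3, 105.7, 283.8 and 294.5, with its higher values on the DKmix arrays as for Ccr1. S1pr3 read 209.9, 176.1, 188.7 and 1.9.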
